A study of Mus musculus with 48 samples.

Results

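Chin, ventral and dorsal skin of mice were compared at early anagen, the onset of the growth phase of the hair cycle, across all genes of the deposited expression table. The comparison rests on 7 of the 48 sequenced samples: 2 chin, 3 ventral and 2 dorsal libraries, all labelled C57BL/6, skin and early anagen, with no treatment or genotype in the labels. The other 36 libraries of the 43 from these skin domains come from 5 other hair cycle stages, and the study profiled them to ask whether domains with different hair cycle speeds differ in candidate activators and inhibitors of hair growth. Every library was made from total RNA of whole skin by SMART-seq2. The labels do not say how many animals went into a library or whether replicates are separate animals, so that p-values measure the spread between these libraries, which may be technical. In whole skin, fewer cells of a type and less RNA per cell cannot be told apart.

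Hair follicles cycle through growth (anagen), regression (catagen) and rest (telogen). At the start of anagen, WNT signals and signals from the dermal papilla, the mesenchymal cluster at the follicle base, activate progenitor cells. These form a proliferating hair matrix that expresses Shh and Lef1, and the matrix then gives rise to the inner root sheath, which molds the growing hair, and to the hair shaft, whose hard keratins are embedded in keratin-associated proteins. In telogen, BMP signals hold follicle stem cells at rest. Melanocytes of the follicle make pigment in anagen and cease to do so outside it.

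Values are FPKM, fragment counts scaled for transcript length and library size, and differences are on the scale of log2(FPKM + 1), which understates the change of low genes. A gene passed the test where limma gave an adjusted p under 0.05. Between 9081999 and 21397934 fragments per library were estimated, using the smallest increments that low FPKM values take. Of 46983 genes, 18155 reached 0.5 FPKM in at least 2 of the 7 libraries and were tested. Replicates of a group correlated at r = 0.971 in chin, 0.976 to 0.979 in the ventral libraries and 0.976 in dorsal skin, across genes.

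The 3 libraries labelled ventral early anagen went against their label. The 30 cell cycle genes, as the mean log2 level over the list, were at 4.26 and 4.64 in the chin libraries and at 4.96 in both dorsal libraries, but between 2.34 and 2.47 in the libraries labelled ventral early anagen. Refractory telogen, the resting phase that follows growth, had mean levels of 2.56 in chin, 2.5 in ventral and 2.38 in dorsal skin. The 14 pigment genes were at 1.49 in the libraries labelled ventral early anagen, against 3.71 in chin and 4.80 in dorsal skin at early anagen, and against 1.2 to 1.56 in the refractory telogen groups. By correlation over 21257 genes, the library of another condition nearest to each of the 3 was one of dorsal refractory telogen, with r between 0.955 and 0.96. The libraries labelled ventral competent telogen, the rest phase before growth, had cell cycle genes at 4.72 and pigment genes at 3.59, and both dorsal early anagen libraries were nearest to one of them (r = 0.961 and 0.955). Chin early anagen was nearest to chin competent telogen (r = 0.97 and 0.968), where the cell cycle genes were at 4.48. The cell cycle and pigment levels of the libraries labelled ventral early anagen were thus near those of refractory telogen. Not every list was: inner root sheath genes were at 7.70 in these libraries, against 8.27 to 9.72 in the refractory telogen groups. Keratin-associated proteins were at 7.23, against 7.79 to 9.18. The cell cycle and pigment levels in chin and dorsal skin do not by themselves tell early anagen from the groups labelled competent telogen. Krt14, a keratin of the basal epidermis, was between 1675 and 5686 FPKM in the 7 libraries. The cause was not tested. The libraries labelled ventral are therefore named as such, and dorsal skin was also compared with chin without them.

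**Figure D1:**
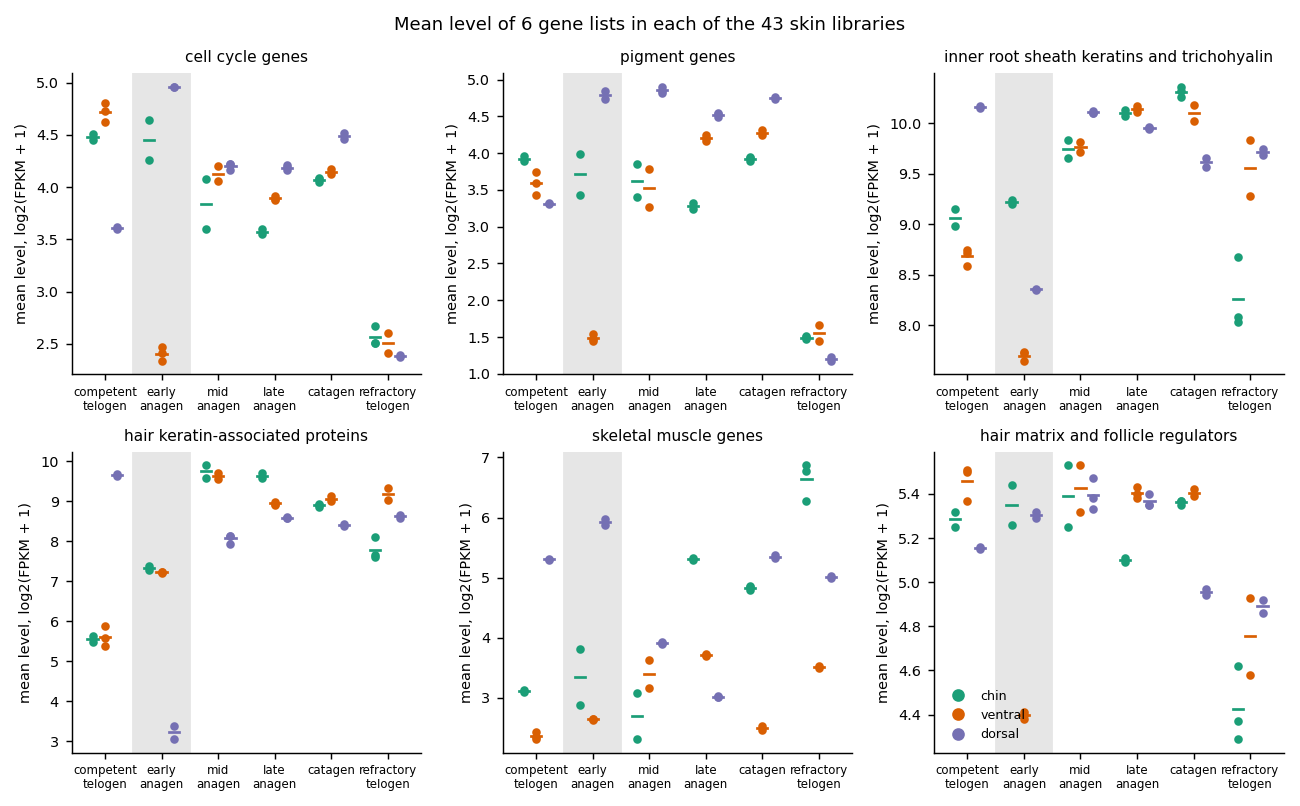
Mean log2(FPKM + 1) over the genes of 6 lists (y axis) in each of the 43 skin libraries (points) by domain and hair cycle stage (x axis), with bars for group means and early anagen shaded. At early anagen the ventral points of the cell cycle and pigment panels lie with the refractory telogen points of all domains, and the dorsal points of the keratin-associated protein panel lie below those of every other group.

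Among the 3 groups, 10035 of 18155 genes differed (F-test), or 55.3%. Between the ventral-labelled libraries and chin, 6464 genes differed, 2568 of them higher and 3896 lower in the ventral-labelled libraries. Between dorsal skin and chin, 5167 genes differed, 3234 higher and 1933 lower in dorsal skin. Between dorsal skin and the ventral-labelled libraries, 8410 genes differed, 5670 higher and 2740 lower in dorsal skin. These were 35.6%, 28.5% and 46.3% of the genes tested. The libraries of the 2 groups did not overlap for 60.3% of genes in the first comparison, 64.6% in the second and 68.0% in the third, so that separation of the groups is common here. The splits by direction depended on scaling, since the median difference over all genes was -0.09, 0.09 and 0.15 in the 3 comparisons. Under median-of-ratios scaling, which took these medians to between -0.01 and 0.01, the splits were 3161 higher and 3159 lower, 2347 and 2369, and 3937 and 3891, in the same order. Quantile normalization gave 3335 and 3043, 2651 and 2200, and 4095 and 3832. A higher count in one direction over all genes is therefore not read as a difference between domains. Without the 3 ventral-labelled libraries, 2629 genes differed between dorsal skin and chin, 1613 higher and 1016 lower, and 2550 of them had passed with all 7 libraries.

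**Figure D2:**
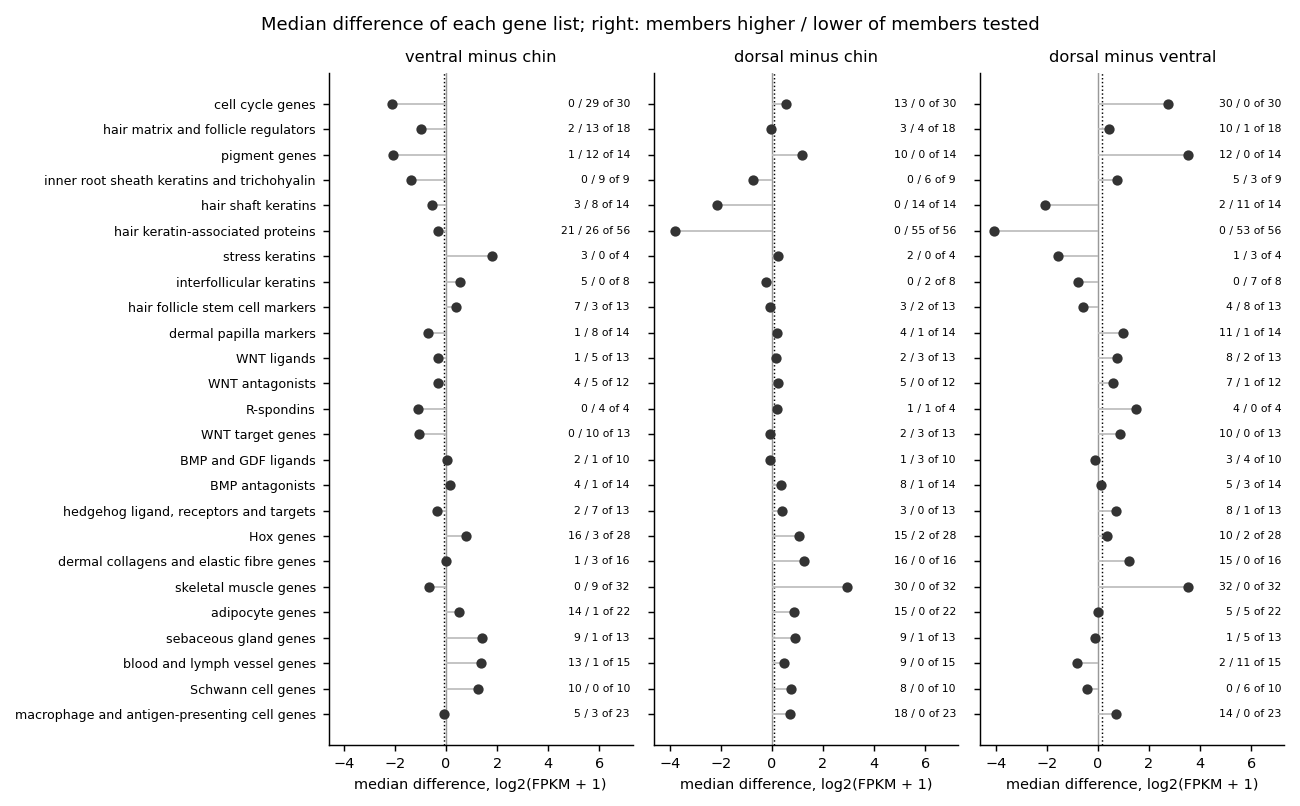
Median difference in log2(FPKM + 1) (x axis) over the tested members of 25 gene lists (rows) in the 3 comparisons (panels), with the dotted line at the median over all 18155 genes and, at the right, the number of members higher and lower of those tested. Pigment, cell cycle and skeletal muscle genes lie farthest to the right, and keratin-associated proteins farthest to the left, in dorsal skin against the ventral-labelled libraries.

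Cell cycle genes separated the ventral-labelled libraries from both other groups. All 30 were tested. Of these, 29 were lower in the ventral-labelled libraries than in chin, against a background of 21.5% of all genes lower, with a median difference of -2.11. All 30 were higher in dorsal skin than in the ventral-labelled libraries, against 31.2% of all genes, with a median of 2.73. Both counts were the same under median-of-ratios scaling. Mki67, the antigen used to mark cycling cells, was at 13.9 and 15.2 FPKM in chin, at 1.42, 1.39 and 1.39 in the ventral-labelled libraries and at 12.9 and 13.4 in dorsal skin. Chin and dorsal libraries were close to each other and about an order of magnitude above the ventral-labelled ones (dorsal minus ventral 2.56 ± 0.09, SE, adjusted p = 9.23e-06; dorsal minus chin -0.13 ± 0.10, adjusted p = 0.349).

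The difference between dorsal skin and chin was smaller. Of the 30 cell cycle genes, 13 were higher in dorsal skin and none was lower, against a background of 17.8% of all genes higher and 10.6% lower, with a median of 0.55. The number fell to 6 without the ventral-labelled libraries and to 6 under median-of-ratios scaling. It was 5 without chin replicate 1 and 3 without either dorsal replicate. Ccnb1, cyclin B1, which drives entry into mitosis, was at 30.8 and 44.3 FPKM in chin, 5.70, 2.88 and 4.99 in the ventral-labelled libraries, and 80.3 and 72.1 in dorsal skin. The 3 groups did not overlap, but the difference between dorsal skin and chin (1.02 ± 0.28, adjusted p = 0.0371) did not pass without chin replicate 1, ventral replicate 3 or either dorsal replicate, or under median-of-ratios scaling. Cdk1, the kinase that cyclin B activates, had the same order, with 67.0 and 101 FPKM in chin, 11.2, 8.17 and 10.3 in the ventral-labelled libraries, and 147 and 142 in dorsal skin.

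The promoters of these genes are shown because the list moved as a group. In RefSeq sequences on GRCm38.p6, 25 of the 30 cell cycle genes had a promoter, and 21 of them, or 84%, held a CCAAT box (CCAAT, either strand) within the 250 bases before the start, against 39.9% of 11491 tested genes. The cell cycle homology region (TTTGAA or TTCGAA, either strand) was found in 10 of the 25, or 40%, against 15.1%. A match describes the sequence only. In the 100 bases before the starts of Ccnb1, at chr13:100786487-100786586 on the minus strand, and Cdk1, at chr10:69352913-69353012 on the minus strand, capitals mark CCAAT or its reverse complement.
Ccnb1: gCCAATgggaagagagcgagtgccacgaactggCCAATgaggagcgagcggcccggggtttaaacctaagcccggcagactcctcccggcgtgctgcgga
Cdk1: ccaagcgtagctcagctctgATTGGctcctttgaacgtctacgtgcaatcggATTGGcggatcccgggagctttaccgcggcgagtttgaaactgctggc

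Most regulators of the hair matrix were lower in the ventral-labelled libraries than in chin. Of 18 tested, 13 were lower and 2 higher, against 21.5% and 14.1% of all genes, with a median of -1.0. Dorsal skin had 10 higher and 1 lower than the ventral-labelled libraries, against 31.2% and 15.1% of all genes. Against chin, dorsal skin had 3 of the 18 higher and 4 lower, with a median of -0.02, where 17.8% of all genes were higher and 10.6% lower, so that the share higher was near the background. Shh, the hedgehog ligand of the matrix, was at 3.60 and 6.58 FPKM in chin, 0.14, 0.27 and 0.20 in the ventral-labelled libraries, and 9.99 and 11.7 in dorsal skin. The ventral-labelled values lay below the level of 0.5 FPKM used for testing (ventral minus chin -2.30 ± 0.21, adjusted p = 0.000478). The dorsal values lay above the chin values (1.00 ± 0.23, adjusted p = 0.0228), a difference that did not pass without the ventral-labelled libraries or without either dorsal replicate. Lef1, a transcription factor that carries WNT signals into the nucleus, was at 46.0 and 59.5 FPKM in chin, 6.00, 4.78 and 6.2 in the ventral-labelled libraries, and 38.2 and 42.8 in dorsal skin. It was lower in the ventral-labelled libraries than in both other groups, and its difference between dorsal skin and chin was -0.36 ± 0.16 (adjusted p = 0.14).

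A smaller set of regulators was highest in chin. Hoxc13, a homeobox factor needed for the hair shaft, was at 73.3 and 93.7 FPKM in chin, 27.8, 27.8 and 28.6 in the ventral-labelled libraries, and 37.0 and 38.7 in dorsal skin. It was lower than in chin in both other groups (-1.53 ± 0.11, adjusted p = 0.000182, and -1.11 ± 0.12, adjusted p = 0.00183). Foxn1, the factor mutated in nude mice, was at 20.4 and 21.3 FPKM in chin and between 9.17 and 11.7 in the other 5 libraries, also lower in both groups (adjusted p = 0.00123 and 0.00357).

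Inner root sheath genes were lower in the ventral-labelled libraries than in chin. All 9, which are keratins and trichohyalin, were lower there, with a median of -1.38. In dorsal skin, 6 of 9 were lower than in chin, with a median of -0.75 (5 of 9 without the ventral-labelled libraries). Of all genes, 21.5% and 10.6% were lower in these comparisons. Krt25 was at 1746 and 1753 FPKM in chin, 343, 356 and 366 in the ventral-labelled libraries, and 1045 and 1034 in dorsal skin. The groups did not overlap (dorsal minus chin -0.75 ± 0.07, adjusted p = 0.00101). Krt71 was at 4299 and 4963 FPKM in chin and 4102 and 3706 in dorsal skin, a difference that did not pass (-0.24 ± 0.10, adjusted p = 0.115), and at 1754, 1743 and 1839.6 in the ventral-labelled libraries. Members differed in their order. Krt72 was lowest in dorsal skin, with 137 and 122 FPKM, against 164, 168 and 174 in the ventral-labelled libraries and 475 and 491 in chin. The order of the ventral-labelled and dorsal groups was therefore not shared by the list. Of its members, 5 were higher and 3 lower in dorsal skin, against 31.2% and 15.1% of all genes.

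Hair shaft genes were low in dorsal skin. Of 57 keratin-associated proteins in the table, 56 were tested. Of these, 55 were lower in dorsal skin than in chin and none was higher, with a median of -3.79. Against the ventral-labelled libraries, 53 were lower and none higher in dorsal skin, with a median of -4.05. Of all genes, 10.6% and 15.1% were lower in these comparisons. Without the ventral-labelled libraries, all 55 members tested were lower in dorsal skin than in chin. The levels summed over the list ranged from 1252 to 1453 FPKM in dorsal skin, from 19791 to 21319 in chin and from 38161 to 39211 in the ventral-labelled libraries. Many of these genes are near-identical copies in clusters, so that fragments may have been split between copies. Of the 14 hair shaft keratins tested, 14 were lower in dorsal skin than in chin (median -2.17, 13 without the ventral-labelled libraries) and 11 were lower than in the ventral-labelled libraries.

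Between chin and the ventral-labelled libraries, the keratin-associated proteins split, with 21 higher and 26 lower in the ventral-labelled libraries. Of all genes, 14.1% were higher and 21.5% lower. Krtap6-2, at chr16:89419326-89420111 on the minus strand in GRCm38, was at 111 and 181 FPKM in chin, 1631, 1412 and 1569 in the ventral-labelled libraries, and 1.83 and 3.13 in dorsal skin. The groups were separated by more than 3 log2 units in each comparison (ventral minus chin 3.43 ± 0.24, adjusted p = 0.000162; dorsal minus chin -5.39 ± 0.26, adjusted p = 5.29e-05). Krtap20-2 was listed at 0 in both chin libraries and at 0 and 1.30 FPKM in dorsal skin, but at 1032, 866 and 807 in the ventral-labelled libraries. Krtap19-5 was at 395 and 361 FPKM in chin and 355, 354 and 348 in the ventral-labelled libraries, which did not differ (adjusted p = 0.782), and at 0.92 and 0 in dorsal skin. Krtap5-3 had another pattern, with 31.0 and 26.2 FPKM in chin and 0.30 to 0.91 in the other 5 libraries.

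The shaft keratins were as mixed. Krt84 was at 3.73 and 2.73 FPKM in chin, 108, 109 and 110.5 in the ventral-labelled libraries, and 0.20 and 0.18 in dorsal skin, and so had the order of Krtap6-2. Krt35, an early keratin of the shaft cortex, had the opposite order of the ventral-labelled and dorsal groups, with 818 and 1070.3 FPKM in chin, 87.5, 100.3 and 105 in the ventral-labelled libraries, and 659 and 617 in dorsal skin. Krt34 was at 159 and 153 FPKM in chin, 109.7, 119 and 117 in the ventral-labelled libraries, and 10.8 and 11.1 in dorsal skin (dorsal minus chin -3.71 ± 0.08, adjusted p = 2.71e-06).

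Promoters of 2 keratin-associated protein genes with the largest differences between dorsal skin and the ventral-labelled libraries are shown. They were chosen among named genes that hold a TATA box in the 100 bases shown. Of the 56 genes tested, 50 had a RefSeq promoter, and 40 of them, or 80%, held a TATA box (TATAAA, either strand) within the 250 bases before the start, against 9.43% of 11491 tested genes. In the 100 bases before the starts of Krtap6-3, at chr16:89083924-89084023, and Krtap20-2, at chr16:89205761-89205860, both on the plus strand of GRCm38.p6, capitals mark TATAAA, which begins 31 bases before the start in both.
Krtap6-3: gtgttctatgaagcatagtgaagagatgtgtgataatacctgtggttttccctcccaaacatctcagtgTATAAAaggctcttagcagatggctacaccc
Krtap20-2: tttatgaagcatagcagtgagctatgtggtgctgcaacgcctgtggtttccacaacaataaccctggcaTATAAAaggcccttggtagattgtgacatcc

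The keratin-associated proteins in dorsal skin were lower at early anagen than at any other stage. As the mean log2 level, the list was at 3.22 in dorsal early anagen and between 8.07 and 9.65 at the other 5 dorsal stages, whereas in chin it was at 7.33 and between 5.57 and 9.74. All 56 members departed from the mean domain difference of the other stages, against a background of 55.0% of 21257 genes. For Krtap6-2, the dorsal minus ventral difference at early anagen, less its mean over the other stages, was -9.56 (limma, adjusted p = 3.30e-26). The dorsal group at competent telogen, at 9.65 for the list, had the highest level of the dorsal stages.

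Most pigment genes were lowest in the ventral-labelled libraries. Of 14 tested, 12 were lower and 1 higher in the ventral-labelled libraries than in chin, with a median of -2.07, against 21.5% and 14.1% of all genes. In dorsal skin, 12 were higher than in the ventral-labelled libraries and none lower, with a median of 3.54, against 31.2% and 15.1%. Against chin, 10 were higher in dorsal skin and none lower, with a median of 1.19, against 17.8% and 10.6%. The number higher was 7 without the ventral-labelled libraries, and median-of-ratios scaling gave 9 higher and 1 lower. Pmel, which forms the fibrils of the melanosome, was at 44.5 and 76.6 FPKM in chin, 4.72, 4.17 and 4.01 in the ventral-labelled libraries, and 269 and 233 in dorsal skin. The groups did not overlap (dorsal minus chin 2.08 ± 0.24, adjusted p = 0.00219). Tyr, tyrosinase, the rate-limiting enzyme of melanin synthesis, was at 10.1 and 15.7 FPKM in chin, 2.44, 1.88 and 2.52 in the ventral-labelled libraries, and 34.5 in both dorsal libraries. Mlana, a melanosome protein, was at 60.0 and 119.9 FPKM in chin and 141 and 135 in dorsal skin, a difference that did not pass (0.69 ± 0.35, adjusted p = 0.186), and at 1.00, 1.89 and 2.37 in the ventral-labelled libraries.

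The chin replicates differed from each other in these genes. Chin replicate 2 was above chin replicate 1 for Shh, Ccnb1, Pmel and Mlana, and its list means were higher for cell cycle genes (4.64 against 4.26), pigment genes (3.99 against 3.43) and skeletal muscle genes (3.82 against 2.89). The estimated depth of the chin libraries was alike, with 13148325 and 12759733 fragments.

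**Figure D3:**
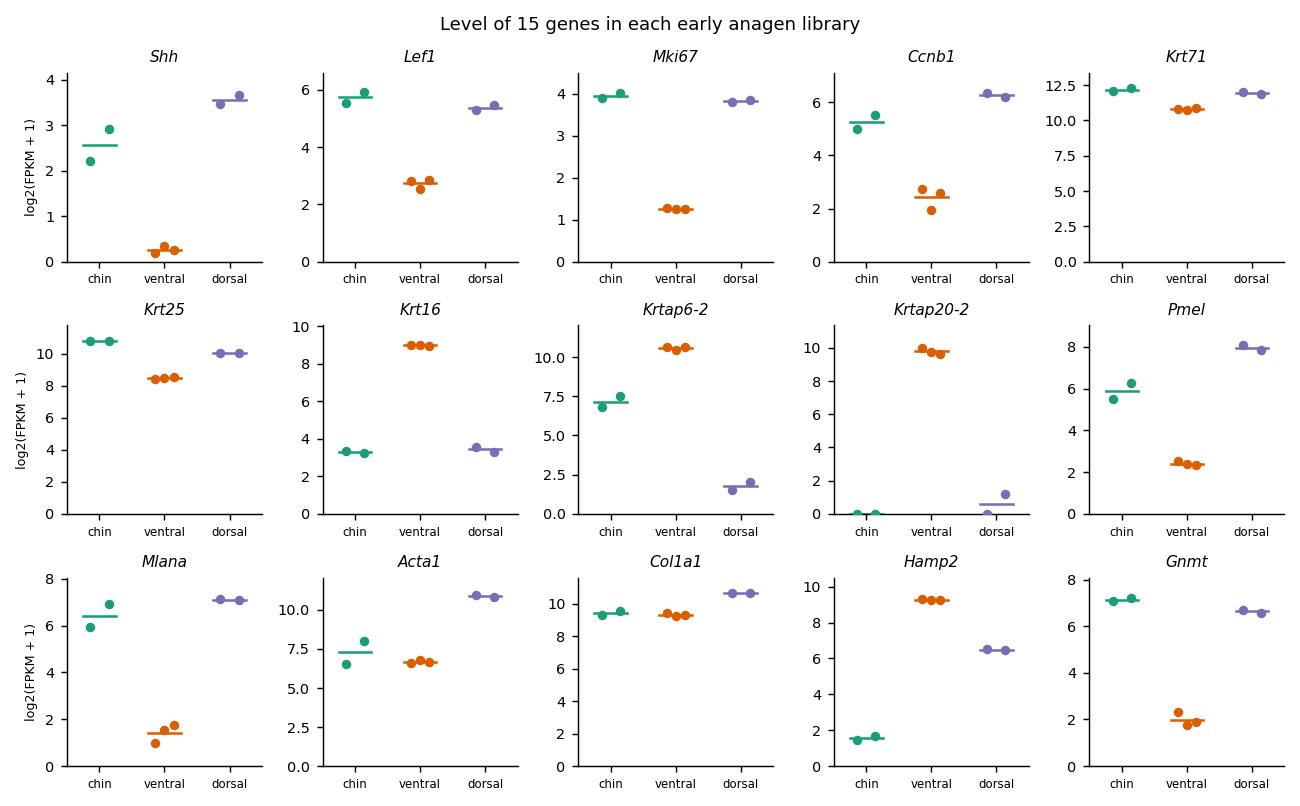
Level of 15 genes as log2(FPKM + 1) (y axes) in each early anagen library (points) by group (x axes), with bars for group means. Shh, Lef1, Mki67 and Ccnb1 are low in the ventral-labelled libraries, Krtap6-2 and Krtap20-2 are high there and low in dorsal skin, and Acta1 and Col1a1 are high in dorsal skin.

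Of 13 hedgehog signaling genes tested, 7 were lower and 2 higher in the ventral-labelled libraries than in chin, against 21.5% and 14.1% of all genes. Dorsal skin had 8 higher and 1 lower than the ventral-labelled libraries, against 31.2% and 15.1%. Gli1, the transcriptional effector and target, was at 3.10 and 4.19 FPKM in chin, 0.61 to 0.78 in the ventral-labelled libraries, and 6.14 and 4.79 in dorsal skin. Each ventral-labelled library was below the libraries of both other groups. Between dorsal skin and chin, 3 of the 13 passed, all higher in dorsal skin, which is near the background of 17.8% of all genes higher. Shh and Gli2, another effector of the pathway that was named after its values were seen, were among them, and none of the 3 passed without the ventral-labelled libraries or without dorsal replicate 1.

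Of 19 WNT ligands in the table, 13 were tested. Of these, 5 were lower in the ventral-labelled libraries than in both other groups, as were 2718 of all 18155 genes. Against chin, 5 ligands were lower and 1 was higher in the ventral-labelled libraries, where 21.5% and 14.1% of all genes were. In dorsal skin, 8 were higher and 2 lower than in the ventral-labelled libraries, against 31.2% and 15.1% of all genes. Wnt5a, a ligand of the dermal papilla that signals mainly without beta-catenin, was at 35.7 and 34.1 FPKM in chin, 5.50, 5.42 and 4.30 in the ventral-labelled libraries, and 22.5 and 28.2 in dorsal skin. It was the ligand with the lowest adjusted p against chin (-2.57 ± 0.13, adjusted p = 6.17e-05). Wnt10b, a ligand of the hair germ at anagen onset, was at 1.2 and 2.58 FPKM in chin, 0.33 to 0.36 in the ventral-labelled libraries, and 2.53 and 2.71 in dorsal skin. The chin values spanned a wide range, and only the ventral-labelled libraries lay apart (ventral minus chin -1.06 ± 0.21, adjusted p = 0.00869).

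Dorsal skin and chin differed in 5 of the 13 WNT ligands, 2 higher and 3 lower in dorsal skin, against 17.8% and 10.6% of all genes, and the counts were the same without the ventral-labelled libraries, 1 and 2 without dorsal replicate 1, and 2 and 1 without dorsal replicate 2. Wnt3a was at 6.36 and 5.47 FPKM in chin and 3.40 and 2.92 in dorsal skin, with 1.19, 1.54 and 1.39 in the ventral-labelled libraries (dorsal minus chin -0.73 ± 0.14, adjusted p = 0.0112, not passed without chin replicate 1 or dorsal replicate 2). Wnt3 was at 28.1 and 25.1 FPKM in chin, 24.6, 25.4 and 26.1 in the ventral-labelled libraries, and 17.9 and 16.5 in dorsal skin, lower there than in both other groups (adjusted p = 0.00574 and 0.00267). Wnt5b had the opposite direction, with 2.89 to 3.53 FPKM in the chin and ventral-labelled libraries and 6.45 and 6.31 in dorsal skin. Wnt2 was at 0.04 and 0.15 FPKM in chin, 0.25, 0.32 and 0.56 in the ventral-labelled libraries, and 1.26 and 1.05 in dorsal skin. These levels of Wnt2 were low, and its calls did not pass without dorsal replicate 1.

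R-spondins, secreted proteins that amplify WNT signals at the receptor, were lowest in the ventral-labelled libraries for all 4 members, with medians of -1.08 against chin and, for dorsal skin against the ventral-labelled libraries, 1.48. Rspo2 was at 0.57 and 1.18 FPKM in chin, 0.02, 0.05 and 0.04 in the ventral-labelled libraries, and 2.53 and 2.46 in dorsal skin. Its ventral-labelled values lay below the level of 0.5 FPKM used for testing. Rspo3, which the dermal papilla expresses, was at 4.93 and 7.84 FPKM in chin, 0.74, 1.49 and 0.49 in the ventral-labelled libraries, and 5.91 and 6.60 in dorsal skin. Chin and dorsal values of Rspo3 overlapped, and their difference was 0.00 ± 0.28.

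WNT antagonists were mixed. Of 12 tested, 5 were lower and 4 higher in the ventral-labelled libraries than in chin, against 21.5% and 14.1% of all genes, and 7 were higher and 1 lower in dorsal skin than in the ventral-labelled libraries, against 31.2% and 15.1%. Wif1, a secreted protein that binds WNT ligands, was at 41.5 and 55.4 FPKM in chin, 2.62, 2.81 and 2.82 in the ventral-labelled libraries, and 42.8 and 40.0 in dorsal skin. Chin and dorsal values overlapped, and both groups lay far above the ventral-labelled one (ventral minus chin -3.71 ± 0.13, adjusted p = 1.23e-05). Sfrp4, a secreted frizzled-related protein, was instead lowest in chin, with 0.52 and 2.31 FPKM, against 8.79, 7.14 and 9.63 in the ventral-labelled libraries and 9.49 and 7.25 in dorsal skin (ventral minus chin 2.08 ± 0.32, adjusted p = 0.00354). Dkk3, of the Dickkopf family, was also lowest in chin, at 10.7 and 9.52 FPKM against 18.2 to 20.8 in the other 5 libraries. Notum, an enzyme that inactivates WNT ligands, was highest in dorsal skin, with 12.8 and 14.2 FPKM against 7.3 and 9.83 in chin and 2.87 to 3.21 in the ventral-labelled libraries. Dorsal skin had 5 of the 12 WNT antagonists higher than chin and none lower, against 17.8% and 10.6% of all genes, and 2 without the ventral-labelled libraries, when Notum did not pass. Leaving out single libraries gave between 2 and 5, with the lowest number without chin replicate 1 or either dorsal replicate.

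Of 13 WNT target genes tested, 10 were lower in the ventral-labelled libraries than in chin and none was higher, against 21.5% and 14.1% of all genes. In dorsal skin, 10 were higher than in the ventral-labelled libraries and none lower (9 and 2 under median-of-ratios scaling), against 31.2% and 15.1%. Lef1, Nkd1 and Edar are also among the matrix regulators counted above. Ccnd1, cyclin D1, was at 57.2 and 75.2 FPKM in chin, 13.7, 14.2 and 13.7 in the ventral-labelled libraries, and 55.7 and 54.6 in dorsal skin. Axin2, a feedback inhibitor used as a readout of WNT signaling, did not share this pattern, with 7.39 and 6.61 FPKM in chin, 6.07, 5.02 and 5.37 in the ventral-labelled libraries, and 4.87 and 4.44 in dorsal skin. Its differences from the ventral-labelled libraries did not pass (limma, adjusted p = 0.0751 and 0.193). Both dorsal values of Axin2 lay below both chin values, but such separation was found for 64.6% of all genes. Between dorsal skin and chin, 2 of the 13 targets were higher and 3 lower in dorsal skin, against 17.8% and 10.6% of all genes.

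**Figure D4:**
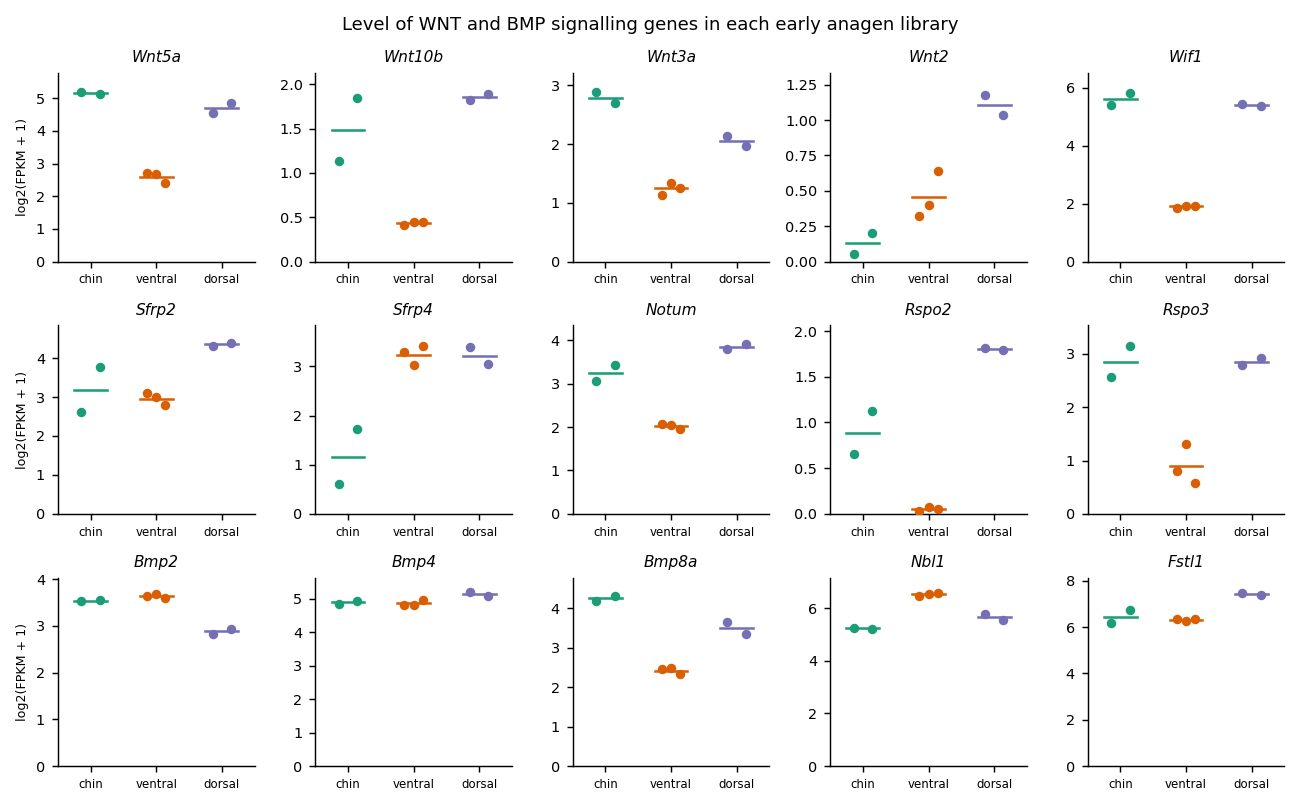
Level of 15 genes of WNT and BMP signaling as log2(FPKM + 1) (y axes) in each early anagen library (points) by group (x axes), with bars for group means. Wnt5a, Wif1, Rspo2, Rspo3 and Bmp8a are lowest in the ventral-labelled libraries, Bmp2 is lowest in dorsal skin, Sfrp4 is lowest in chin, and Bmp4 lies within a narrow range in all groups.

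Of 18 BMP and GDF ligands in the table, 10 were tested, with 2 higher and 1 lower in the ventral-labelled libraries than in chin, 1 higher and 3 lower in dorsal skin than in chin, and 3 higher and 4 lower in dorsal skin than in the ventral-labelled libraries. The shares that passed were 30%, 40% and 70%, against 35.6%, 28.5% and 46.3% of all genes. Their medians lay between -0.12 and 0.04. Bmp2 was at 10.5 and 10.7 FPKM in chin, 11.5, 11.9 and 11.2 in the ventral-labelled libraries, and 6.12 and 6.63 in dorsal skin. It was lower in dorsal skin than in both other groups (-0.65 ± 0.09, adjusted p = 0.00437, and -0.76 ± 0.08, adjusted p = 0.000646). Bmp4, a ligand of the dermal papilla, was between 27.1 and 30.1 FPKM in the chin and ventral-labelled libraries and at 35.8 and 33.1 in dorsal skin. Its difference between dorsal skin and the ventral-labelled libraries (0.28 ± 0.08, adjusted p = 0.0325) did not pass under median-of-ratios scaling. Bmp8a was at 17.3 and 19.1 FPKM in chin, 4.51, 4.58 and 4.03 in the ventral-labelled libraries, and 11.6 and 9.25 in dorsal skin, with the 3 groups apart.

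Among 14 BMP antagonists tested, 8 were higher and 1 lower in dorsal skin than in chin, against 17.8% and 10.6% of all genes, and 3 and 1 without the ventral-labelled libraries. Without dorsal replicate 1 the numbers were 1 and 0. Fstl1, a secreted follistatin-like protein, was at 70.6 and 105 FPKM in chin, 81.2, 75.1 and 80.0 in the ventral-labelled libraries, and 176 and 168 in dorsal skin (dorsal minus chin 0.99 ± 0.17, adjusted p = 0.00874). Nbl1, of the DAN family, was highest in the ventral-labelled libraries, with 87.7, 91.8 and 93.8 FPKM against 37.0 and 36.5 in chin and 54.2 and 46.5 in dorsal skin. Nog, noggin, a diffusible antagonist that promotes anagen, was low in all libraries, between 0.48 and 1.47 FPKM. It was among the antagonists that passed between dorsal skin and chin, but at these low levels no direction is read from it. Of 7 BMP response genes, 4 were lower and 1 higher in the ventral-labelled libraries than in chin, against 21.5% and 14.1% of all genes. Dorsal skin had 3 lower and 1 higher than chin, against 10.6% and 17.8%. Id3 was among those that passed in the first comparison. Id1, a direct target, was between 121 and 181 FPKM with overlap of the groups and no difference that passed. Smad6 and Smad7, the inhibitory SMADs that BMP signals induce, were higher in chin, with 5.80 and 5.39 and 8.00 and 8.13 FPKM, than in the other 5 libraries, where Smad6 ranged from 1.88 to 3.03 and Smad7 from 3.01 to 3.97.

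Markers of the dermal papilla had 8 of 14 tested members lower in the ventral-labelled libraries than in chin and 1 higher, and 11 higher and 1 lower in dorsal skin than in the ventral-labelled libraries (7 higher without dorsal replicate 1). Of all genes, 14.1% were higher and 21.5% lower in the first comparison and 31.2% higher and 15.1% lower in the second. Alpl, alkaline phosphatase, was at 1.18 and 1.72 FPKM in chin, 1.38 to 1.52 in the ventral-labelled libraries, and 7.02 and 5.74 in dorsal skin, apart from both others (dorsal minus chin 1.59 ± 0.16, adjusted p = 0.00124). Of 13 stem cell markers, 7 were higher and 3 lower in the ventral-labelled libraries than in chin, and 4 were higher and 8 lower in dorsal skin than in the ventral-labelled libraries, where the share higher was near that over all genes. Krt15, a keratin of the follicle bulge and of basal epidermis, was at 1776 and 1360.1 FPKM in chin, 5511, 5659 and 6043 in the ventral-labelled libraries, and 2242 and 2157 in dorsal skin. Sox9, a factor of bulge and outer root sheath cells, was at 84.1 and 82.2 FPKM in chin, 194, 188 and 164 in the ventral-labelled libraries, and 74.2 and 84.4 in dorsal skin. Lgr5, a receptor of the lower bulge and hair germ, was between 9.66 and 13.5 FPKM in all libraries, with no difference that passed.

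Stress keratins were high in the ventral-labelled libraries. Of 4, 3 were higher there than in chin and none lower, with a median of 1.78, against 14.1% and 21.5% of all genes. Krt16, a keratin induced in wounded and thickened epidermis and present in the outer root sheath, was at 9.32 and 8.51 FPKM in chin, 516, 503 and 492 in the ventral-labelled libraries, and 11.0 and 8.99 in dorsal skin. The ventral-labelled libraries lay apart from both groups (ventral minus chin 5.67 ± 0.10, adjusted p = 1.43e-06). Krt6a, its partner, was at 139 and 109 FPKM in chin, 806, 813 and 769 in the ventral-labelled libraries, and 137 and 134 in dorsal skin. The mean of the stress keratins over the ventral-labelled libraries, 7.66, was above that of every other group of the 43 libraries, which ranged from 5.32 to 6.88. Of 8 interfollicular keratins, 5 were higher and none lower in the ventral-labelled libraries than in chin, against the same shares of all genes. The number higher was 3 when any of the ventral-labelled libraries was left out. Krt14, of the basal layer, was at 2191 and 1675 FPKM in chin, 5405, 5613 and 5686 in the ventral-labelled libraries, and 2284 and 2169 in dorsal skin.

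Most sebaceous gland genes were lower in chin. Of 13 tested, 9 were higher and 1 lower in the ventral-labelled libraries than in chin (median 1.39, against 14.1% and 21.5% of all genes), and 9 were higher and 1 lower in dorsal skin than in chin (median 0.91, against 17.8% and 10.6% of all genes, 7 and 1 without the ventral-labelled libraries). Scd3, a fatty acid desaturase of the sebaceous gland, was at 2.61 and 3.04 FPKM in chin, 90.8, 87.2 and 89.2 in the ventral-labelled libraries, and 63.7 and 60.4 in dorsal skin. Awat2, an acyltransferase that makes wax esters, was at 4.76 and 3.17 FPKM in chin, 66.5 to 70.9 in the ventral-labelled libraries, and 37.8 and 30.6 in dorsal skin. Elovl3, a fatty acid elongase, was the member with the opposite direction, with 209.6 and 184 FPKM in chin, 39.0, 37.3 and 38.5 in the ventral-labelled libraries, and 116 and 107 in dorsal skin.

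Skeletal muscle genes set dorsal skin apart. Of 32 tested, 30 were higher in dorsal skin than in chin and none was lower, with a median of 2.94 (28 without the ventral-labelled libraries). All 32 were higher than in the ventral-labelled libraries, with a median of 3.51. Of all genes, 17.8% and 31.2% were higher in these comparisons, and 21.5% were lower in the ventral-labelled libraries than in chin. Acta1, the actin of skeletal muscle, was at 91.0 and 260.0 FPKM in chin, 97.0, 108 and 101 in the ventral-labelled libraries, and 1983 and 1793 in dorsal skin. Dorsal values lay above all others (dorsal minus chin 3.61 ± 0.42, adjusted p = 0.00245). Summed over the list, the levels were 9840 to 10024 FPKM in dorsal skin, 658 and 1594 in chin and 544 to 575 in the ventral-labelled libraries. Between the ventral-labelled libraries and chin, 9 of the skeletal muscle genes were lower in the former, a number that was 25 without chin replicate 1 and 4 without ventral replicate 1. Mylpf, a light chain of fast muscle, was at 80.8 and 191 FPKM in chin, 58.3, 54.6 and 54.2 in the ventral-labelled libraries, and 1376 and 1379 in dorsal skin. Whether the share of skeletal muscle in the samples moved the other differences was not tested. The list was not highest in dorsal early anagen among all groups, since its mean log2 level was 5.93 there, 5.31 in dorsal competent telogen and 6.64 in chin refractory telogen.

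Of the 32 skeletal muscle genes, 26 had a RefSeq promoter, and 15 of these, or 57.7%, held the myogenic E-box CAGCTG within the 250 bases before the start, against 14.8% of 11491 tested genes. The letters read the same on both strands. Promoters of Mylpf, at chr7:127211508-127211607, and Des, desmin, at chr1:75360192-75360291, both on the plus strand of GRCm38.p6, are shown as the muscle counterpart to the promoters above, with the E-box in capitals.
Mylpf: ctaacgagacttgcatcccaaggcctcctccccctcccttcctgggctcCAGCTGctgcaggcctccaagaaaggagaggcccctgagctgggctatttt
Des: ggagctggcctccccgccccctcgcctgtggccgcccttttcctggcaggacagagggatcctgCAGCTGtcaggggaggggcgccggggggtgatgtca

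Collagens and elastic fibre genes were also higher in dorsal skin. All 16 were higher than in chin (median 1.24, 14 without the ventral-labelled libraries). Of these, 15 were higher than in the ventral-labelled libraries (median 1.23, 14 higher and 1 lower under median-of-ratios scaling). Of all genes, 17.8% and 31.2% were higher in these comparisons. Col1a1, of the main dermal collagen, was at 624 and 767 FPKM in chin, 686, 618 and 629 in the ventral-labelled libraries, and 1646 and 1630.3 in dorsal skin. Chin and ventral-labelled values overlapped (adjusted p = 0.469). Eln, elastin, was the member that did not separate dorsal skin from the ventral-labelled libraries, with 12.7 and 13.5 FPKM in chin, 49.7, 44.3 and 51.0 in the ventral-labelled libraries, and 43.7 and 36.1 in dorsal skin.

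Markers of other cells in the skin differed too. Of all genes, 14.1% were higher in the ventral-labelled libraries and 17.8% in dorsal skin than in chin. Of 23 macrophage and antigen-presenting cell genes, 18 were higher in dorsal skin than in chin and none lower, with 9 without the ventral-labelled libraries and 7 without dorsal replicate 1. Fcgr3, an Fc receptor of macrophages, was at 6.00 and 5.85 FPKM in chin, 4.41 to 5.12 in the ventral-labelled libraries, and 15.2 and 16.5 in dorsal skin. Blood and lymph vessel genes were highest in the ventral-labelled libraries, where 13 of 15 were higher and 1 lower than in chin, with a median of 1.38. Cldn5, a tight junction protein of endothelium, was at 12.1 and 17.9 FPKM in chin, 65.1, 78.3 and 75.8 in the ventral-labelled libraries, and 30.0 and 27.6 in dorsal skin. All 10 Schwann cell genes were higher in the ventral-labelled libraries than in chin, and 8 of 10 were higher in dorsal skin than in chin (6 without the ventral-labelled libraries). Of 22 adipocyte genes, 14 were higher and 1 lower in the ventral-labelled libraries than in chin, and 15 were higher in dorsal skin than in chin, a number that was 9 without the ventral-labelled libraries and 9 without dorsal replicate 1.

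Hox genes, which record position along the body axis, include several that were at or near 0 FPKM in chin. Of 39 Hox genes in the table, 28 were tested, of which 14 were lower and 2 higher in chin than in both other groups, against 5.42% and 4.59% of all genes. Of the 28, 16 were higher and 3 lower in the ventral-labelled libraries than in chin (median 0.80), against 14.1% and 21.5% of all genes. In dorsal skin, 15 were higher and 2 lower than in chin (median 1.06, 13 and 1 without the ventral-labelled libraries), against 17.8% and 10.6%. Hoxa7, at chr6:52214491-52221854 on the minus strand in GRCm38, was at 0.45 and 0.98 FPKM in chin, 32.7, 38.0 and 37.9 in the ventral-labelled libraries, and 38.9 and 39.3 in dorsal skin. Chin lay apart from both, and the other two groups did not differ (0.11 ± 0.15, adjusted p = 0.557). Hoxa9 was at 0 and 0.25 FPKM in chin and between 7.0 and 11.0 in the other 5 libraries. Hoxa6 was listed at 0 in both chin libraries and between 1.48 and 2.65 FPKM elsewhere.

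Between dorsal skin and the ventral-labelled libraries, 10 Hox genes were higher and 2 lower in dorsal skin (8 and 2 under median-of-ratios scaling). Of all genes, 31.2% were higher and 15.1% lower, so that the share higher was near the background. Hoxb6 was at 0 and 1.42 FPKM in chin, 3.86, 3.56 and 4.95 in the ventral-labelled libraries, and 15.1 and 15.7 in dorsal skin. Hoxd8 had the same order, with 2.75 and 3.10, then 4.48, 3.87 and 3.82, then 10.7 and 12.4 FPKM. The 2 that were lower in dorsal skin were Hoxd9 and Hoxd10. Hoxd10 was at 0.64 and 0.28 FPKM in chin, 3.32, 3.44 and 3.24 in the ventral-labelled libraries, and 1.37 and 1.60 in dorsal skin (dorsal minus ventral -0.80 ± 0.14, adjusted p = 0.00417). Among the genes with low paralogue numbers, Hoxa2 was at 1.45 and 1.65 FPKM in chin, 0.55 to 0.64 in the ventral-labelled libraries, and 1.31 and 1.09 in dorsal skin. Levels of Hox genes also varied over the stages of one domain: the mean for Hoxa7 in dorsal skin was 39.1 FPKM at early anagen and 3.31 at late anagen, and in ventral skin 39.9 FPKM at competent telogen and 3.84 at catagen.

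**Figure D5:**
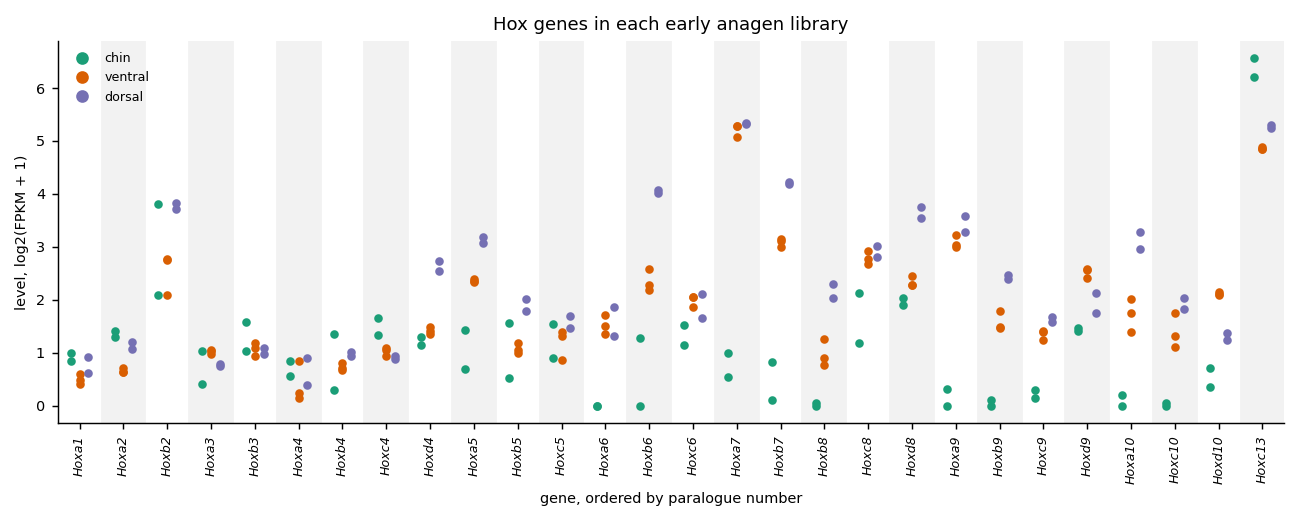
Level of the 28 tested Hox genes as log2(FPKM + 1) (y axis) ordered by paralogue number (x axis) in each early anagen library (points), colored by group. Hoxa7, Hoxa9, Hoxa10 and Hoxb9 lie near 0 in both chin libraries and higher in the other 5, while Hoxc13 is highest in chin.

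Sets of genes apart from both other groups numbered 1817 for chin (10.0% of genes tested, 833 or 4.59% higher and 984 or 5.42% lower), 4137 for the ventral-labelled libraries (22.8%, 1419 or 7.82% higher and 2718 lower) and 3111 for dorsal skin (17.1%, 2130 or 11.7% higher and 981 or 5.40% lower). Under median-of-ratios scaling, these splits were 873 and 908, 2009 and 1920, and 1334 and 1397. The genes with the largest difference were named by rule. Serpinb6e, a serine protease inhibitor gene at chr13:33832345-33843408 on the minus strand in GRCm38, was at 0.45 and 0.77 FPKM in chin, 72.1, 70.8 and 66.5 in the ventral-labelled libraries, and 53.7 and 55.5 in dorsal skin. It belongs to a cluster of near-identical genes, and its neighbor Serpinb6d had the opposite direction, with 152 and 26.9 FPKM in chin and 0 to 0.42 in the other 5 libraries. The chin replicates of Serpinb6d differed several-fold. Serpina3j, of another serpin cluster, was lower in chin, with 7.46 and 5.90 FPKM, against 145 to 156 in the ventral-labelled libraries and 114 and 108 in dorsal skin.

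Hamp2, a copy of the gene for hepcidin, the hormone that limits iron export from cells, had 1.70 and 2.20 FPKM in chin, 644, 604 and 618 in the ventral-labelled libraries, and 92.5 and 86.2 in dorsal skin. All 3 groups lay apart (ventral minus chin 7.73 ± 0.09, adjusted p = 4.58e-07; dorsal minus chin 4.94 ± 0.10, adjusted p = 2.71e-06). Its neighbor Hamp was listed at 0 in the chin and dorsal libraries and at 18.2, 18.9 and 20.3 FPKM in the ventral-labelled ones. Gnmt, glycine N-methyltransferase, had the reverse order, with 132 and 147 FPKM in chin, 4.01, 2.35 and 2.66 in the ventral-labelled libraries, and 103 and 94.6 in dorsal skin. Gnmt in the refractory telogen groups was at 6.85, 5.10 and 2.73 FPKM in chin, ventral and dorsal skin, so that the ventral-labelled level was within their range. Gpnmb, a glycoprotein of melanocytes and macrophages, was at 48.3 and 56.6 FPKM in chin, 2.70 to 3.98 in the ventral-labelled libraries, and 69.0 and 61.9 in dorsal skin.

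The study's own lists of putative activators and inhibitors of hair growth were counted as well. The study had taken them from a separate microarray time series of dorsal skin, as genes that followed its simulated activator and inhibitor. They share members with lists above. Among the largest changes were the cell cycle genes Ccnb1, Ube2c and Birc5 and the WNT antagonist Wif1 for the activators. For the inhibitors these included Msx1, Lef1 and Wnt5a. Their counts are therefore not separate from those above. Of 234 putative activators tested, 125 were lower and 28 higher in the ventral-labelled libraries than in chin, and 163 were higher and 29 lower in dorsal skin than in the ventral-labelled libraries, against 21.5% and 14.1%, and 31.2% and 15.1%, of all genes. Dorsal skin had 72 higher and 7 lower than chin, against 17.8% and 10.6% of all genes, and 33 and 3 without the ventral-labelled libraries. Of 122 putative inhibitors, 53 were lower and 16 higher in the ventral-labelled libraries than in chin, and 36 were lower and 9 higher in dorsal skin than in chin (17 and 2 without the ventral-labelled libraries). Between dorsal skin and the ventral-labelled libraries the inhibitors gave 48 higher and 28 lower, but 31 higher and 44 lower under median-of-ratios scaling, so that no direction is given.

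Whether the domain differences belonged to early anagen was tested against the mean of the same differences at the 5 other stages, over 43 libraries and 21257 genes. The differences departed for 11687 genes, or 55.0%. For dorsal skin against the ventral-labelled libraries 9550 genes departed (44.9%), for dorsal skin against chin 7270 (34.2%), and for the ventral-labelled libraries against chin 6552 (30.8%). All 30 cell cycle genes, 14 pigment genes, 18 matrix regulators and 16 collagens were among the 11687, in a test that includes the ventral-labelled libraries. For dorsal skin against chin, 4863 of the 21257 genes departed upward and 2407 downward. Of the 30 cell cycle genes, 15 departed upward and 1 downward in this comparison. The numbers were 7 and 1 for pigment genes, 4 and 6 for matrix regulators, and 16 and 0 for collagens. For Mki67, the ventral minus chin difference, less its mean over the other stages, was -2.72 (limma, adjusted p = 4.27e-19), and the dorsal minus chin departure was -0.25 (adjusted p = 0.0464). For Col1a1, the dorsal minus ventral departure was 2.49, with 1638 FPKM in dorsal early anagen and 2048 FPKM in ventral competent telogen as the highest group means. Of the Hox genes, 20 of 28 departed. The departure for Hoxa7 was 2.35 for ventral minus chin and 2.99 for dorsal minus chin, and for dorsal minus ventral it was 0.64 (adjusted p = 0.126).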

How the data were processed

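Total RNA of whole mouse skin was sequenced after SMART-seq2. The authors aligned reads to mm10 with GENCODE vM8, estimated expression with RSEM 1.2.25 and deposited FPKM values described as corrected for batch effects. The batches and the correction are not given in the sources used here, so batch and group cannot be told apart. Columns were mapped to samples by name. Genes were matched to GENCODE vM21 on GRCm38 (46488 of 46983).

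The 7 early anagen libraries were fitted as 3 groups on log2(FPKM + 1) with limma 3.58.1 in R 4.3.3, allowing the variance to follow the mean level, with Benjamini-Hochberg adjustment over 18155 genes that reached 0.5 FPKM in at least 2 libraries. A gene set a group apart where it passed against both others in the same direction. The departure from other stages was an F-test in a fit of 43 libraries as 18 groups. Gene lists are given by counts and medians, with no set test. On simulated data for dorsal skin against chin (17408 genes, 200 changed), 69% of log2 changes of 1 and 90% of changes of 2 were recovered, with 9 unchanged genes called. In the data 5167 genes differed in this comparison, and the simulation changed only genes at higher levels. These rates therefore may not carry over to the data. Alternatives were the pseudocount, filters, scaling, variance trend, a replicate block and each library left out.

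Genes were named as the 5 with the largest change per comparison and direction, or per group set apart, that passed, did not overlap between groups and reached a mean of 5 FPKM in the higher group, the 5 with the lowest p for departure, and from each list its defining members and up to 4 with the largest change. Tested WNT and BMP ligands and antagonists and Hox genes could all be named. The comparison, members and lists were chosen with earlier results of these data known. Results for some genes are not reported here.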

Additional observations from a re-analysis of the deposited data

Results flagged for a closer look

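Domain differences at early anagen departed from their mean over the other 5 stages, by an interaction test in limma, for 11687 genes. By pair, 6552 genes departed for ventral minus chin, 7270 for dorsal minus chin and 9550 for dorsal minus ventral. The 3 libraries labelled ventral early anagen enter the first and last of these. The 5 genes with the lowest p were the keratin-associated protein genes Krtap1-5, Krtap22-2, Krtap6-2 and Krtap6-5 and the unnamed locus BX813332.1.

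For Krtap1-5, the log2 departure was 1.48 for ventral minus chin, -4.16 for dorsal minus chin and -5.65 for dorsal minus ventral. For Krtap22-2 it was 1.66, -5.94 and -7.60 in the same order. For Krtap6-2 it was 3.09, -6.47 and -9.56, and for Krtap6-5 it was 1.83, -6.90 and -8.73. In these 4 genes, dorsal early anagen was the low group. BX813332.1 departed by -3.27 for both ventral minus chin and dorsal minus chin, with 8.31 and 8.98 FPKM in the chin libraries and 0 listed in the other 5.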

How the results depend on the processing

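Of 8 counts of genes, 115 alternative values lay within 1.5 times the reported one and 14 did not. The count for dorsal skin against chin was 2629 without the 3 ventral-labelled libraries, an alternative chosen after seeing the data that has fewer samples. Leaving out single libraries gave 2137 (without dorsal replicate 1) to 5000 genes for dorsal skin against chin, with 2736 without dorsal replicate 2 and 3190 without chin replicate 1. It gave 867 (without dorsal replicate 1) to 1505 genes that set chin apart, with 1105 without dorsal replicate 2. It gave 1343 (without dorsal replicate 1) to 3436 genes that set dorsal skin apart, with 1627 without dorsal replicate 2 and 1993 without chin replicate 1. These alternatives leave a group with 1 library, which is assumed to vary like the others. The lowest counts without 1 library were 7627 for the F-test, 4675 for ventral against chin, 5759 for dorsal against ventral, 3048 for ventral apart and 10142 for the departure. Without the competent telogen libraries, also chosen after seeing the data, 11051 genes departed. Shared replicate numbers did not pair the samples, since deviations of same-numbered libraries correlated between -0.0627 and 0.106. With the replicate block, the counts were 4278 for ventral against chin, 3162 for dorsal against chin, and 987, 2742 and 1844 genes that set chin, ventral and dorsal skin apart. For named genes and lists, 15459 values kept their direction and side of the threshold or moved little, 716 no longer passed, 236 newly passed, 275 moved and 0 reversed. The salivary gland list had no member left at a minimum of 5 FPKM. The cause was not tested.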

Other observations

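Counts of further lists stand beside shares over all genes of 14.1% higher and 21.5% lower in the libraries labelled ventral early anagen than in chin, 17.8% higher and 10.6% lower in dorsal skin than in chin, and 15.1% lower in dorsal skin than in the ventral-labelled libraries. Of 16 circadian clock genes, 8 were higher and none lower in the libraries labelled ventral early anagen than in chin, and 7 were lower in dorsal skin than in the ventral-labelled libraries. Dbp, a transcription factor under direct clock control, was at 4.24 and 5.10 FPKM in chin, 24.8, 29.0 and 25.2 in the ventral-labelled libraries, and 8.12 and 9.01 in dorsal skin. Of 10 simple epithelial keratins and uroplakins, 6 were higher and 1 lower in the ventral-labelled libraries than in chin. Krt18, a keratin of simple and glandular epithelia, was at 1.94 and 3.11 FPKM in chin, 19.3, 20.8 and 22.3 in the ventral-labelled libraries, and 0.84 and 0.45 in dorsal skin. Csn3, a milk casein, was at 7.44 to 9.49 FPKM in the ventral-labelled libraries and at 0 to 0.13 in the other 4.

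Of 39 cornified envelope genes, 14 were lower and 2 higher in dorsal skin than in chin, 6 and 0 without the ventral-labelled libraries. Of 11 smooth muscle genes, 7 were higher in dorsal skin than in chin, 3 without the ventral-labelled libraries and 2 without dorsal replicate 1. Of 6 red blood cell genes, 5 were higher in dorsal skin than in chin.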
